A study of Rattus norvegicus with 19 samples.

Results

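This report describes 41 enzymes, regulators and carriers that bring pyruvate into the mitochondrion, run the tricarboxylic acid (TCA) cycle and break down branched-chain amino acids, in RNA-seq libraries of rat hearts with heart failure with preserved ejection fraction (HFpEF). The members were taken from a list of 42 gene symbols. Of these, 41 were found among the 17455 genes of the count files, and the symbol Mut, methylmalonyl-CoA mutase, was not found and is not analysed here. All 41 passed the filter on low counts and were tested among 12388 genes, and they were split into 11 of pyruvate entry, 16 of the TCA cycle with the malate-aspartate enzymes, and 14 of branched-chain amino acid breakdown.

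The study sequenced 19 libraries, 1 per heart, from 7 groups of Sprague-Dawley rats that were 24 weeks old at the start. To induce HFpEF, rats drank water with 0.5 g/L of L-NAME, which blocks nitric oxide synthase, and ate a lard-based diet that supplied 60% of kilocalories as fat, for 5 weeks. The group HFpEF and its chow-fed control 5w were sampled at week 5, and the groups control 9w, untreated (HFpEF rats gavaged with PBS), EMPA, PFD and EMPA + PFD at week 9 after 4 weeks of treatment. Each group had 3 libraries except EMPA and PFD, which had 2. EMPA is empagliflozin, an inhibitor of the sodium-glucose cotransporter SGLT2, given at 0.35 g/kg per day, and PFD is pirfenidone, an antifibrotic drug, given at 0.3 g/kg per day. EMPA, PFD and EMPA + PFD rats had all been through the L-NAME and high-fat induction, which the study's discussion describes as prolonged over the treatment weeks. The labels give the tissue as heart and the sex as male, and the study's methods name the left ventricle.

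Pyruvate enters the mitochondrial matrix through a carrier made of Mpc1 and Mpc2. The pyruvate dehydrogenase complex oxidises it to acetyl-CoA, and is switched off by the kinases Pdk1 and Pdk2 and switched on by the phosphatases Pdp1 and Pdp2, while pyruvate carboxylase turns pyruvate into oxaloacetate. Citrate synthase joins oxaloacetate and acetyl-CoA, and the dehydrogenases of the cycle then release the electrons that drive respiration, on which the beating heart depends. Leucine, isoleucine and valine are first transaminated by Bcat2 and then committed to oxidation by the branched-chain ketoacid dehydrogenase, which the kinase Bckdk inhibits.

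The libraries held 7430539 to 13017754 counts, and the lowest count of any member in any library was 36, for Pdp2. Several libraries stood apart. Eif2s3y, a gene of the Y chromosome, was at 0 counts in 7 of the 19 libraries although all are labelled male, namely HFpEF replicates 1 and 3, all 3 untreated and both PFD libraries, and it was at 613 counts or more in the other 12. RT1-CE16, a histocompatibility gene, had 0 to 3 counts in all week 5 libraries and both EMPA libraries and at least 308 in the other week 9 libraries. Untreated replicate 2 was the lowest untreated library for 40 of the 41 members (40.5% of all tested genes), and control 5w replicate 1 was the highest control 5w library for 41 of 41 (43% of all tested genes). The 12 cardiomyocyte markers, all detected with at least 2730 counts in every library, summed to 45663.5 to 107967 CPM (counts scaled to a common TMM-normalised library size) in control 5w and 15424 to 45343 in HFpEF. At week 9 control 9w held 47835 to 55979 CPM, untreated 26159.8 to 92983, EMPA 48914 to 62676, PFD 86544 to 97402 and EMPA + PFD 94980.4 to 130125. In whole tissue, fewer cells of a type and less RNA per cell cannot be told apart. The 4 atrial markers, which a ventricular sample should hold at low levels, ran from 187 to 23214 CPM within control 9w and from 47.5 to 14838.5 within untreated. Control 5w held 3284 to 6124 CPM of them, HFpEF 272 to 2086, EMPA 698 to 5171, PFD 62.5 to 2982 and EMPA + PFD 86.1 to 381.

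The promoters of members that moved together are shown to give the sequence context of the genes. RefSeq promoters of the GRCr8 assembly, 250 bases before to 50 bases after the start, were matched for 35 of the 41 members, whereas the counts were made on rn6. Idh3a, Pdp1, Pdp2, Pc, Bckdha and Mccc2 had no entry. Both strands were searched for 3 motifs. AAGGTCA, a site bound by estrogen-related receptors, was found in 0 of 35 member promoters and in 4.37% of all 27457 promoters. CATGCGC, part of the NRF1 motif, was found in 2 of 35 (5.71%), Bcat2 and Pccb, and in 3.94% of all. CCGGAAG, an ETS motif, was found in 5 of 35 (14.3%), Dlst, Idh3b, Idh3g, Mdh2 and Mpc2, and in 9.22% of all. These are matches of letters, and no binding was measured. The promoters of Cs and Ogdh are printed because these 2 genes changed most and hold none of the motifs, and those of Dlst, Mdh2 and Pccb as members with a match, which is in capitals.
Cs (chr7:1348139-1348438, plus strand): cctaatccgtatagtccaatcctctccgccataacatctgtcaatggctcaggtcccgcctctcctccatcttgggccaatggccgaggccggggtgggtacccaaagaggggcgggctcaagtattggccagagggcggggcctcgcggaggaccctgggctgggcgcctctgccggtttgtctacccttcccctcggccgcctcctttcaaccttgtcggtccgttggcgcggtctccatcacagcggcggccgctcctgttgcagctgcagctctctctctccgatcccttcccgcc
Ogdh (chr14:85363781-85364080, plus strand): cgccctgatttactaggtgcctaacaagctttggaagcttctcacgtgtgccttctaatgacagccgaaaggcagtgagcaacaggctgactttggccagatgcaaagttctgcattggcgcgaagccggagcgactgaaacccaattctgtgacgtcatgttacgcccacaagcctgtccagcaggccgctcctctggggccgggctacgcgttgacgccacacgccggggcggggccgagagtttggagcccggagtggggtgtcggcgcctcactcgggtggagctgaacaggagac
Dlst (chr6:110489456-110489755, plus strand): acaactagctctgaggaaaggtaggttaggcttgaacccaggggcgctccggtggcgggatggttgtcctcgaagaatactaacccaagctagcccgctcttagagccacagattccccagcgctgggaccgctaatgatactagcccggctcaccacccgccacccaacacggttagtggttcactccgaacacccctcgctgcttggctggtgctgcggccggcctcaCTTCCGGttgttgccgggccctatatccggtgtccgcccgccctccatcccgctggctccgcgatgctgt
Mdh2 (chr12:26543792-26544091, minus strand): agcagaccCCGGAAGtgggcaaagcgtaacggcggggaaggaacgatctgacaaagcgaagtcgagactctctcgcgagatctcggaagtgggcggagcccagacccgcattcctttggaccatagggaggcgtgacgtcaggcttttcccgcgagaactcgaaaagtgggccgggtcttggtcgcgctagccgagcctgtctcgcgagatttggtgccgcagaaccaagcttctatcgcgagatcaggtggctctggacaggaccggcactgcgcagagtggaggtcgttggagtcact
Pccb (chr8:110520137-110520436, minus strand): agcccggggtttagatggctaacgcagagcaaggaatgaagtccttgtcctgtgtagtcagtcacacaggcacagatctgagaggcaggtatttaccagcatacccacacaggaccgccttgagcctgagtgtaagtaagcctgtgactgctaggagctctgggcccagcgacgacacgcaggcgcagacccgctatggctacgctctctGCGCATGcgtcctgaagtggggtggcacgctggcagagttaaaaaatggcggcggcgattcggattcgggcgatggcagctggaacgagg

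The levels of the 3 branches rose and fell together across the libraries. The mean log2 CPM of the 16 TCA cycle genes was 9.69, 8.70 and 8.85 in the 3 control 5w libraries and 7.43, 7.73 and 8.46 in HFpEF. At week 9 it was 8.16, 8.28 and 8.32 in control 9w, 9.49, 7.44 and 9.14 in untreated and 9.71, 10.06 and 9.88 in EMPA + PFD. Every HFpEF library was below every control 5w library, and every EMPA + PFD library was above every other week 9 library, while the untreated libraries lay on both sides of control 9w. With 2 libraries each, the mean was 8.86 and 8.52 in EMPA and 9.42 and 9.50 in PFD. The plot of branch levels by library shows these orders also for pyruvate entry and branched-chain breakdown, and beside them the cardiomyocyte markers.

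**Figure D1:**
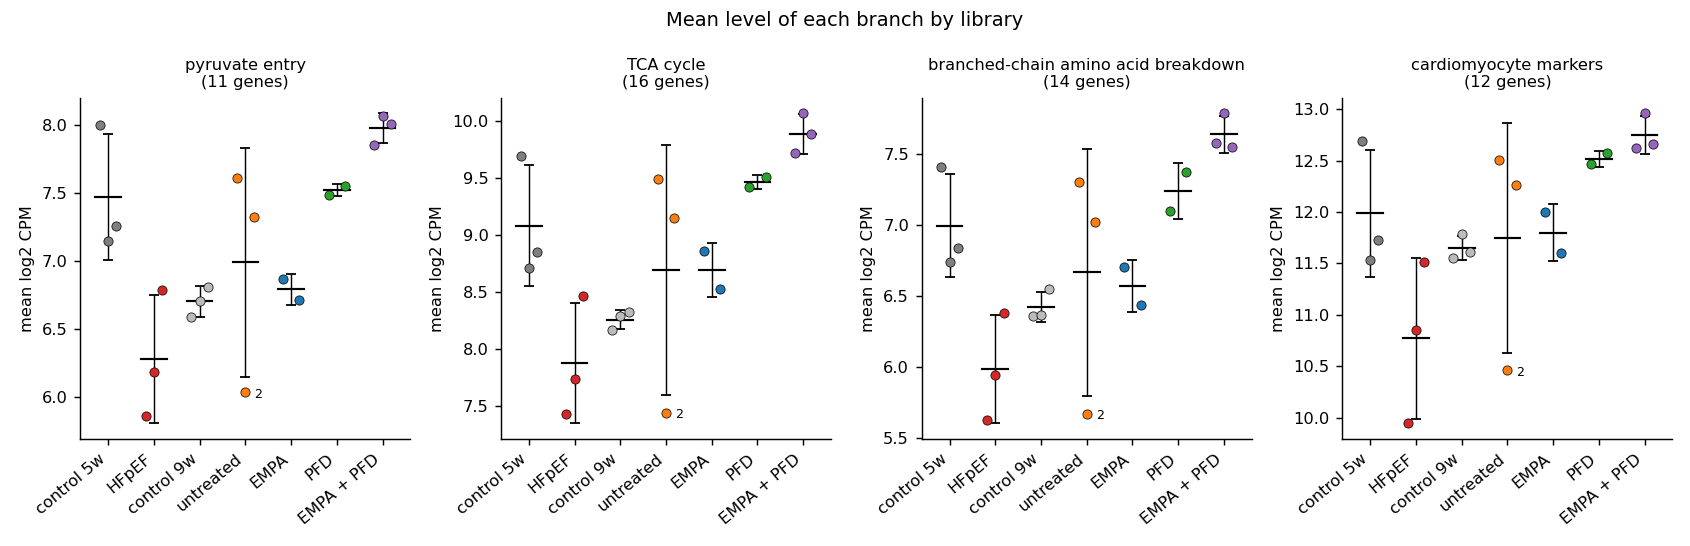
Mean log2 CPM of the genes of each branch and of 12 cardiomyocyte markers in each of the 19 libraries (points), with group means (horizontal lines) and SD (error bars). Untreated replicate 2, marked 2, lies within the HFpEF range in all 4 panels, and the EMPA + PFD libraries lie highest at week 9.

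Disease establishment was asked of HFpEF against control 5w, both sampled at week 5. Of the 41 members 22 fell and 0 rose (adjusted p under 0.05), and 18 of them fell at least 2-fold. Over all tested genes 10.2% fell at this threshold and 4.41% fell at least 2-fold. The median log2 fold change of the 41 was -1.11, against 0.02 over all genes. By branch, 8 of 11 pyruvate entry genes, 7 of 16 TCA cycle genes and 7 of 14 branched-chain genes fell.

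Among the genes of pyruvate entry, Pdha1, the catalytic subunit of pyruvate dehydrogenase, stood at 1053, 805 and 841 CPM in control 5w and 338, 285 and 475 CPM in HFpEF (log2 fold change -1.30, SE 0.32, adjusted p = 0.0137). Pdk2, the kinase that inhibits the complex and the largest fall of the branch, was at 465, 223 and 243 CPM against 45.00, 108 and 128 CPM (log2 fold change -1.72, SE 0.42, adjusted p = 0.0141). The groups did not overlap for either gene, so subunit and inhibitor were low in the same libraries. The core subunit Dlat fell by 1.62 on the log2 scale, Pdhb by 1.16 and the binding protein Pdhx by 1.47, and the activating phosphatases Pdp1 and Pdp2 fell by 1.28 and 1.49. Pdk1, the paralog of Pdk2, had a log2 fold change of -1.11 that did not pass (adjusted p = 0.0943). The carrier subunit Mpc1 was at 746, 359 and 393 CPM in control 5w and 201, 312 and 430.2 CPM in HFpEF, and its groups overlapped (log2 fold change -0.67, SE 0.38, adjusted p = 0.223). Mpc2 did not pass either (-0.65, adjusted p = 0.254). Pc, pyruvate carboxylase, fell from 41.3, 40.1 and 39.0 CPM to 22.7, 18.2 and 34.8 CPM (log2 fold change -0.67, SE 0.18, adjusted p = 0.0196), with no overlap and a spread among controls that was far smaller than that of Pdk2.

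In the TCA cycle, Cs, citrate synthase, was the largest fall, at 980.4, 549 and 590.2 CPM in control 5w and 139, 135 and 220.1 CPM in HFpEF (log2 fold change -2.10, SE 0.42, adjusted p = 0.00545). Ogdh, the first subunit of 2-oxoglutarate dehydrogenase, stood at 631, 309 and 358 CPM against 90.9, 85.3 and 135 CPM (log2 fold change -2.06, SE 0.35, adjusted p = 0.00224). For both genes the highest HFpEF library was well below the lowest control. Idh3a, the catalytic subunit of NAD-dependent isocitrate dehydrogenase, was at 575, 300.3 and 317 CPM and 106, 95.7 and 190.2 CPM (log2 fold change -1.61, SE 0.39, adjusted p = 0.0132). Suclg2, the GDP-forming subunit of succinyl-CoA ligase, was at 190.2, 160.3 and 173 CPM and 88.0, 84.2 and 107 CPM (log2 fold change -0.91, SE 0.25, adjusted p = 0.0223). Both fell without overlap. Dld, the lipoamide dehydrogenase shared by the ketoacid dehydrogenases, fell by 1.06, and the aspartate aminotransferases Got1 and Got2 fell by 1.54 and 1.45 on the log2 scale. Mdh2, mitochondrial malate dehydrogenase, was at 1479, 836 and 881 CPM in control 5w against 346, 453 and 843 CPM, where HFpEF replicate 3 lay between the controls (log2 fold change -0.96, SE 0.43, adjusted p = 0.126). The other 8 TCA members, Idh2, Idh3b, Idh3g, Dlst, Suclg1, Sucla2, Fh and Mdh1, had log2 fold changes of -1.37 (Idh2) to -0.43 (Suclg1) and did not pass.

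In branched-chain amino acid breakdown, Aldh6a1, the last enzyme of the mitochondrial valine route, was the largest fall, from 600.1, 317 and 373 CPM to 72.6, 110.0 and 155 CPM (log2 fold change -1.93, SE 0.41, adjusted p = 0.00724). Bcat2, the transaminase that starts the pathway, was at 129.9, 88.0 and 92.9 CPM and 51.4, 45.2 and 60.1 CPM (log2 fold change -0.99, SE 0.28, adjusted p = 0.0243). Hibadh, which acts before Aldh6a1 on valine, was at 315, 203 and 208 CPM and 84.6, 88.2 and 138 CPM (log2 fold change -1.22, SE 0.35, adjusted p = 0.0269). All 3 fell with no overlap between the groups. Mccc1, a subunit of the leucine enzyme methylcrotonyl-CoA carboxylase, was at 113, 75.5 and 77.1 CPM against 36.6, 39.6 and 60.8 CPM (log2 fold change -0.96, SE 0.25, adjusted p = 0.0182), and its partner Mccc2 fell by 1.46, the leucine enzyme Ivd by 1.52 and the dehydrogenase core Dbt by 1.18 on the log2 scale. Bckdha, the catalytic subunit of the branched-chain dehydrogenase, was at 174, 129 and 139 CPM and 65.5, 104 and 138 CPM, with overlap (log2 fold change -0.53, SE 0.34, adjusted p = 0.284). Its inhibitor Bckdk was at 137, 89.0 and 84.3 CPM and 63.4, 79.8 and 76.1 CPM, without overlap but not past the threshold (log2 fold change -0.50, SE 0.24, adjusted p = 0.151). The remaining Bckdhb, Auh, Hibch, Pcca and Pccb ranged from -1.17 (Pcca) to -0.39 (Auh).

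All 3 control 5w libraries have Eif2s3y, whereas HFpEF replicates 1 and 3 lack it. The disease and what Eif2s3y stands for are thus partly confounded in this comparison. HFpEF replicate 2, which has Eif2s3y, was below every control 5w library for 39 of 41 members (35.7% of all genes). All 3 HFpEF libraries were below all controls for 32 of 41 (19.1% of all genes). The number that passed was sensitive to single libraries. It was 9 without control 5w replicate 1 or HFpEF replicate 2 (6.24% and 5.49% of all genes fell) and 10 without HFpEF replicate 1 (6.33%). It was 33 once untreated replicate 2, which enters through the shared spread, was left out (13.8%). It was 7 when only these 6 libraries were fitted, where 3.31% of all genes fell (Pdha1, Cs, Ogdh, Suclg2, Bcat2, Ivd and Aldh6a1). With Eif2s3y as a covariate it was 6, where 5.13% fell (Pdha1, Pdp1, Pc, Cs, Idh3a and Ogdh). Eif2s3y varied within no group but HFpEF, so the coefficient of this covariate rested on HFpEF replicate 2 against replicates 1 and 3. That fit therefore depends on 1 HFpEF library and cannot separate the disease from what Eif2s3y stands for. The cardiomyocyte markers moved in the same direction, with 4 of 12 lower, 0 higher and a median log2 fold change of -1.19, and a fit with them as a covariate is given further on. Of 6 endothelial markers 2 rose (1107 to 1428 CPM summed in control 5w, 1035 to 2685 in HFpEF), and their part in the result was not tested.

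**Figure D2:**
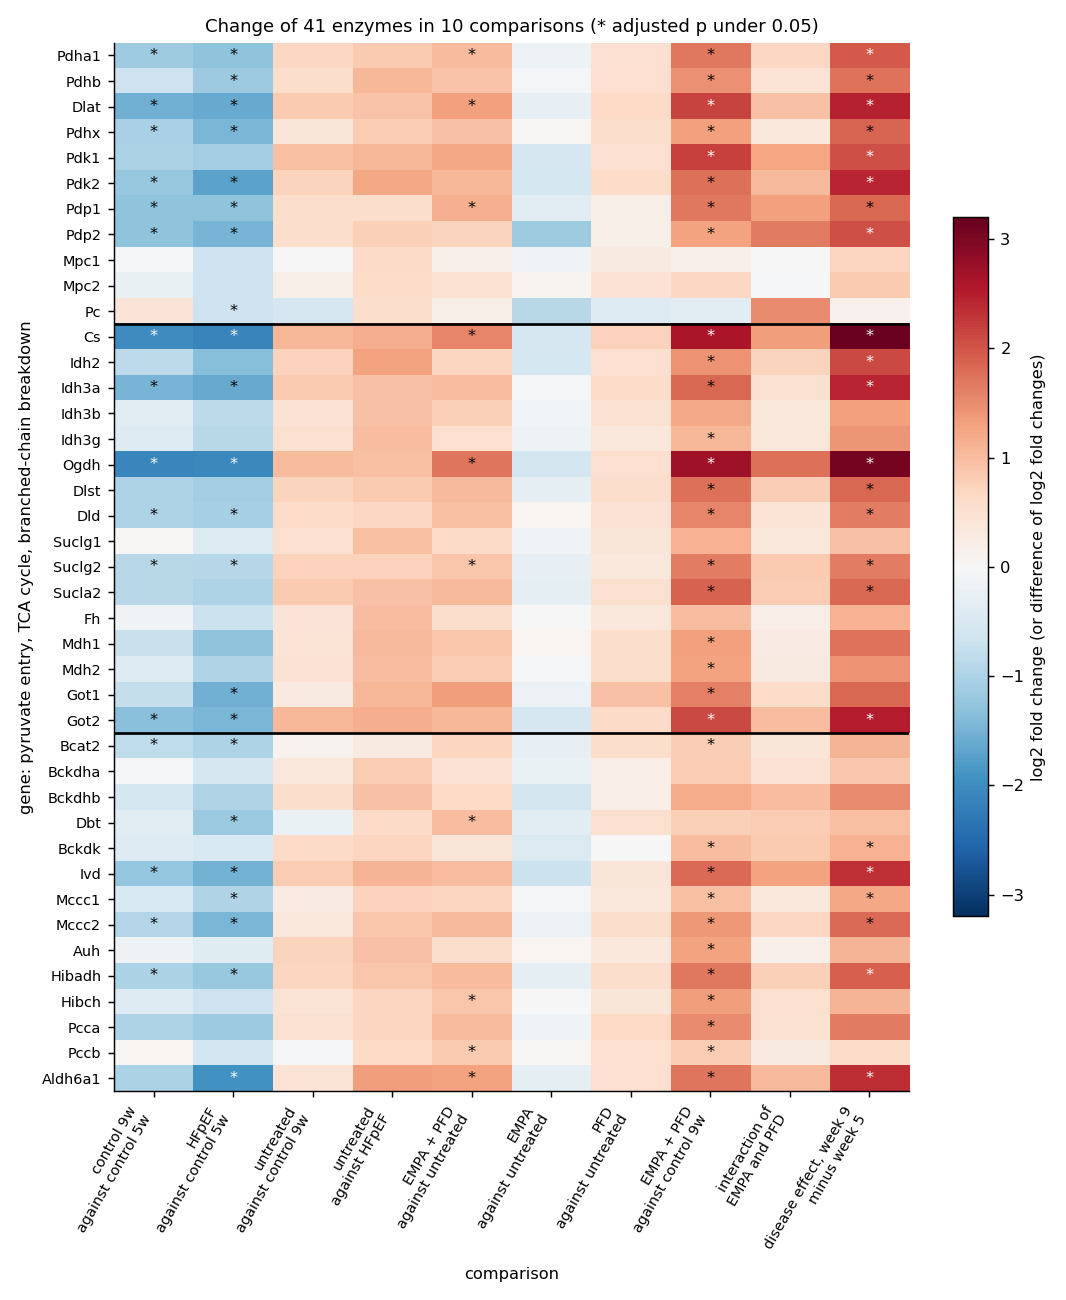
Log2 fold change of the 41 members (rows, with lines between pyruvate entry, TCA cycle and branched-chain breakdown) in 10 comparisons (columns), where red is higher, blue lower and an asterisk marks an adjusted p under 0.05. Falls fill the first 2 columns (16 and 22 members passed), rises the columns of EMPA + PFD against untreated (10) and against control 9w (32).

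Physiological change over time was asked of control 9w against control 5w, which also differed in RT1-CE16, so that time and what this gene stands for cannot be told apart. Of the 41 members 16 fell and 0 rose, 12 of them at least 2-fold, where 17.2% of all genes fell and 7.21% fell at least 2-fold. The comparison shares its control 5w libraries with that of HFpEF, so their values are given side by side and not correlated. By branch 6 of 11 pyruvate entry, 6 of 16 TCA cycle and 4 of 14 branched-chain genes fell.

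Ogdh and Cs led again, at 88.1, 116 and 99.9 CPM and 169, 172 and 188 CPM in control 9w (log2 fold changes -2.09, SE 0.35, adjusted p = 7.87e-04, and -2.0, SE 0.42, adjusted p = 0.00281). Idh3a was at 133, 126 and 163 CPM (log2 fold change -1.5, SE 0.39, adjusted p = 0.00914) and Pdha1 at 385, 335 and 506 CPM (log2 fold change -1.14, SE 0.32, adjusted p = 0.0132). All 3 control 9w libraries were below every control 5w library for these 4 genes. Suclg2 was at 90.5, 81.8 and 109.9 CPM (log2 fold change -0.89, SE 0.25, adjusted p = 0.0141), Pdk2 at 123, 131 and 147 CPM (log2 fold change -1.21, SE 0.42, adjusted p = 0.0365), and Hibadh at 114, 99.0 and 148 CPM (log2 fold change -1.01, SE 0.35, adjusted p = 0.0383). Bcat2 stood at 52.9, 58.2 and 66.7 CPM (log2 fold change -0.80, SE 0.28, adjusted p = 0.0373). Each of these was below its control 5w range. The others that passed were Dlat (-1.55), Pdhx (-1.03), Pdp1 (-1.28), Pdp2 (-1.30), Dld (-0.99), Got2 (-1.34), Ivd (-1.25) and Mccc2 (-0.94).

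Other members moved less. Mpc1 was at 457, 532 and 453 CPM in control 9w, inside the control 5w range (log2 fold change -0.05, SE 0.38, adjusted p = 0.926), and so was Bckdha at 130.1, 161 and 133 CPM (log2 fold change -0.06, SE 0.34, adjusted p = 0.909). Pc was at 51.9, 54.1 and 54.4 CPM, above all 3 control 5w libraries but not past the threshold (log2 fold change 0.41, SE 0.18, adjusted p = 0.0844). Mdh2 (737, 792 and 833 CPM, log2 fold change -0.44), Mccc1 (59.7, 58.9 and 70.1 CPM, -0.49), Bckdk (80.4, 73.7 and 80.0 CPM, -0.40) and Aldh6a1 (209, 178 and 248 CPM, -1.02, adjusted p = 0.0592) did not pass, although each lay below its control 5w range. The count of 16 was 9 without control 5w replicate 1, where 17.5% of all genes fell. It was 7 without control 9w replicate 1 (11%) and 6 without control 9w replicate 2 (9.6%). In the same comparison 1 of 12 cardiomyocyte markers fell, 6 of 7 fibroblast markers fell (summed level 4475 to 44925 CPM in control 5w and 3053 to 4564 in control 9w) and 5 of 6 endothelial markers rose (1107 to 1428 and 2346 to 3073 CPM), and 3 of 6 leukocyte markers fell (438 to 1787 and 227 to 290.2 CPM). Their part in the result was not tested.

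The consequence of leaving HFpEF untreated was asked of untreated against control 9w. None of the 41 members passed in edgeR, where 1.78% of all genes did. At an unadjusted p under 0.05 were 10 members and 2259 of the 12388 genes. DESeq2 called 0 members (6.65% of all genes). Voom with sample quality weights called 37, 36 of them higher, where it called 40.4% of all genes. The untreated libraries were split. Cs was at 598, 120.3 and 379.6 CPM in untreated, and Ogdh at 305, 101 and 206 CPM. Pdha1 was at 924, 314 and 709 CPM, Pdk2 at 337, 93.9 and 228 CPM and Aldh6a1 at 446, 114 and 293 CPM. Replicates 1 and 3 were above every control 9w library for these 5 genes, and replicate 2 was below the control 9w range, or within it for Ogdh. Over the 41 members untreated replicate 1 was above every control 9w library for 40 (34.9% of all genes) and replicate 3 for 38 (32.5%), whereas replicate 2 was below every control 9w library for 39 (37.7%).

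The split was alike in the other members. Mpc1 was at 668, 199 and 586 CPM, Mdh2 at 1585, 347 and 1342 CPM and Bckdha at 244, 71.9 and 222 CPM. Idh3a was at 371, 98.5 and 282 CPM and Suclg2 at 215, 81.4 and 172 CPM. Bcat2 was at 87.3, 32.9 and 71.3 CPM, Bckdk at 158, 70.7 and 128 CPM, Mccc1 at 90.5, 46.5 and 91.5 CPM and Hibadh at 291, 76.2 and 211 CPM. Replicate 2 was the lowest in all of these. Pc was the exception, at 34.6, 40.4 and 36.1 CPM with replicate 2 highest and all 3 below control 9w (log2 fold change -0.53, SE 0.18, adjusted p = 0.13). Without untreated replicate 2, 17 members rose and 0 fell, where 4.33% of all genes rose, led by Got2 (1.5, SE 0.32, adjusted p = 0.0182), Cs (1.47, SE 0.28, adjusted p = 0.0123) and Pdk1 (1.40, adjusted p = 0.0203), and without HFpEF replicate 3, 1 fell, Pc. All untreated libraries lack Eif2s3y and all control 9w libraries have it, so what that split stands for and the disease cannot be told apart. The cardiomyocyte markers had 0 of 12 past the threshold, and their sum was lowest in untreated replicate 2 among the untreated libraries. That library was the highest untreated one for the summed atrial markers (14838.5 CPM against 47.5 and 483 in replicates 1 and 3) and fibroblast markers (8389 against 3898 and 3741 CPM). Of 3 tested erythroid markers 2 fell (1111 to 1728 CPM summed in control 9w, 174 to 286 in untreated), and their part was not tested.

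Untreated was also set against HFpEF, the same disease model 4 weeks earlier. RT1-CE16 had 1 to 3 counts in HFpEF and 583 to 684 in untreated, and Eif2s3y was present in HFpEF replicate 2 only. Time and what these genes stand for cannot be told apart in any fit of this comparison. In edgeR 0 members passed, where 0.226% of all genes did. At an unadjusted p under 0.05 were 31 members and 2817 of the 12388 genes. The median log2 fold change of the members was 0.92. DESeq2 called 4, Pdk2, Pc, Ivd and Aldh6a1, all higher (3.17% of all genes were), and voom called 35, all higher (12.6% of all genes). Without untreated replicate 2 edgeR called 37, all higher (8.38% of all genes), among them Idh2 (1.75), Aldh6a1 (1.72) and Cs (1.57). Without HFpEF replicate 3 it called 1, Pc. The cardiomyocyte markers had a median of 1.06 with 0 of 12 past the threshold, and all 3 tested erythroid markers fell (median -3.52, 1302 to 3637 CPM summed in HFpEF), and their part was not tested.

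The disease effect, HFpEF or untreated minus the control of the same week, was then compared between week 9 and week 5 in a test of the difference, which was added after the data were seen. It was higher at week 9 for 23 of 41 members and lower for 0, where 9.76% of all genes were higher, and the median difference was 1.73 on the log2 scale against -0.02 over all genes. The difference was 3.15 (SE 0.58, adjusted p = 0.0036) for Cs, 3.07 (SE 0.49, adjusted p = 0.00196) for Ogdh and 2.47 (SE 0.58, adjusted p = 0.0107) for Dlat. For Cs the group means were 706 ± 238 CPM in control 5w and 165 ± 48.1 CPM in HFpEF (SD, n = 3), but 176 ± 9.94 CPM in control 9w and 366 ± 239 CPM in untreated. Both controls enter with opposite sign, and control 9w was itself far below control 5w for this gene. The count was 14 without control 5w replicate 1, HFpEF replicate 1, control 9w replicate 1, control 9w replicate 2 or untreated replicate 3, 15 without HFpEF replicate 2, 11 without untreated replicate 1 and 37 without untreated replicate 2. With Eif2s3y as a covariate, whose coefficient came from the HFpEF libraries alone, it was 15. Eif2s3y was absent from 3 of 3 untreated and 2 of 3 HFpEF libraries and from no control. The week difference and what Eif2s3y stands for thus cannot be told apart. Across all fits that left out 1 library, 1321 to 3690 of all genes passed in this test in either direction, against 2473 with all libraries.

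**Figure D3:**
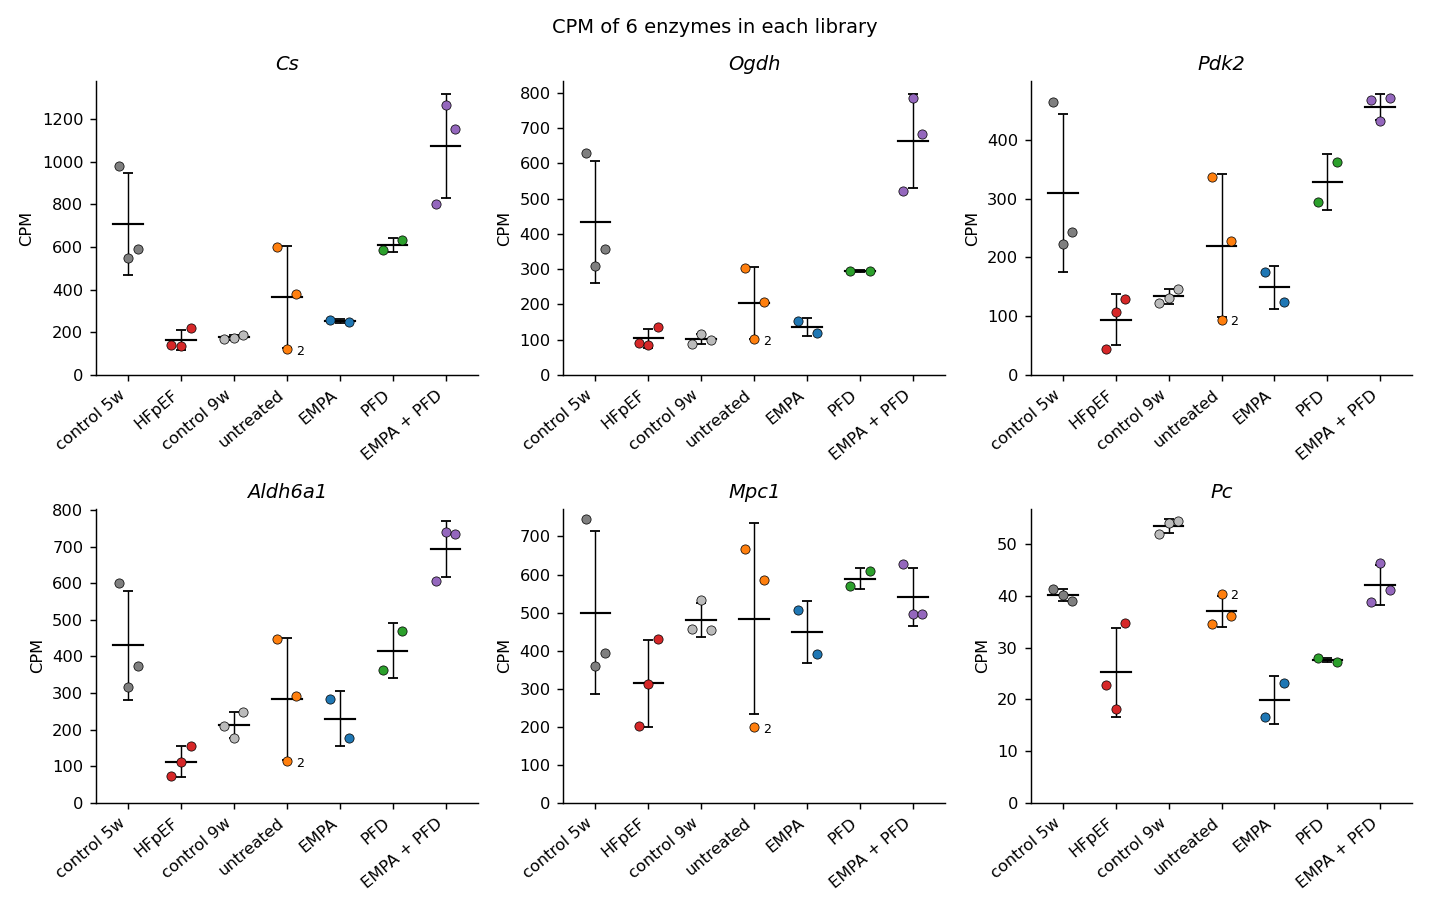
CPM of Cs, Ogdh, Pdk2, Aldh6a1, Mpc1 and Pc in each library (points), with group means (lines) and SD (error bars), on axes that start at 0. Cs, Ogdh and Aldh6a1 are highest in EMPA + PFD, Mpc1 overlaps between most groups, and Pc is highest in control 9w.

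The treatment effect was asked of EMPA + PFD against untreated. Of the 41 members 10 rose and 0 fell, 6 of them at least 2-fold, where 6.6% of all genes rose and 2.34% rose at least 2-fold. All 3 EMPA + PFD libraries were above all 3 untreated libraries for 30 of 41 members, and for 18.7% of all genes. The median log2 fold change was 0.90 over the members and -0.03 over all genes. The 10 were Pdha1, Dlat and Pdp1 of pyruvate entry, Cs, Ogdh and Suclg2 of the TCA cycle, and Dbt, Hibch, Pccb and Aldh6a1 of branched-chain breakdown.

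Ogdh was the largest rise, at 520.2, 786 and 683 CPM in EMPA + PFD against the untreated values given above (log2 fold change 1.70, SE 0.35, adjusted p = 0.0127), and Cs was at 799, 1267 and 1153 CPM (log2 fold change 1.55, SE 0.41, adjusted p = 0.0296). Suclg2 was at 258, 335 and 281 CPM (log2 fold change 0.90, SE 0.25, adjusted p = 0.0352). In all 3 the lowest treated library was above the highest untreated one. Dlat, the largest rise of its branch, was at 329.7, 76.2 and 250.04 CPM in untreated and 443, 627 and 557 CPM in EMPA + PFD (log2 fold change 1.31, SE 0.41, adjusted p = 0.0492). Pdha1 was at 999, 1552 and 1393 CPM (log2 fold change 1.02, SE 0.32, adjusted p = 0.0481) and Aldh6a1 at 606, 739 and 735 CPM (log2 fold change 1.29, SE 0.40, adjusted p = 0.0495). Neither overlapped with untreated. Pdp1 rose by 1.14 on the log2 scale, Dbt by 0.99, the valine enzyme Hibch by 0.90 and Pccb, a subunit of propionyl-CoA carboxylase, by 0.84.

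Members that did not pass in this comparison were also mostly higher. Pdk2 was at 467, 431 and 471 CPM, above every untreated library (log2 fold change 1.05, SE 0.42, adjusted p = 0.0987). Idh3a was at 432, 545 and 521 CPM (log2 fold change 1.00, SE 0.38, adjusted p = 0.0919) and Mdh2 at 1878, 2089.8 and 1832.5 CPM (log2 fold change 0.82, SE 0.43, adjusted p = 0.196). For both the groups did not overlap. Hibadh was at 351, 426 and 379 CPM (log2 fold change 1.00), Mccc1 at 126, 133 and 106 CPM (0.68) and Bcat2 at 128, 87.0 and 92.4 CPM (0.68). Mpc1 was at 629, 496 and 496 CPM (0.16), Bckdha at 259, 267 and 218 CPM (0.47), Bckdk at 140.3, 175 and 149.9 CPM (0.39) and Pc at 38.9, 46.4 and 41.2 CPM (0.19), and in these 4 the groups overlapped.

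The count of 10 depended on single libraries. It was 0 without untreated replicate 2 or EMPA + PFD replicate 2 (0.697% and 0.67% of all genes rose) and 1 without EMPA + PFD replicate 3 (1.75%). It was 2 without untreated replicate 3 (2.03%) and 23 without untreated replicate 1 (10.1%). It was 4 or 5 without control 5w replicate 2 or 3 or any control 9w library, which enter only through the shared spread (4.51% to 5.98%). It was 0 when only the 6 libraries compared were fitted (0.0348% of all genes rose) and 0 with Eif2s3y as a covariate (1.67%). Eif2s3y splits these 2 groups completely, so that the treatment and what Eif2s3y stands for cannot be told apart. The coefficient of the covariate came from the HFpEF libraries alone, so that fit cannot separate them either. Without untreated replicate 2 the median log2 fold change of the members was 0.59. Of the cardiomyocyte markers 1 of 12 rose in this comparison, with a median of 0.76, and 2 of 4 atrial markers fell.

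Against control 9w, with which EMPA + PFD shares the presence of both Eif2s3y and RT1-CE16, 32 of 41 members rose and 0 fell, 28 of them at least 2-fold, where 17.1% of all genes rose and 7.15% rose at least 2-fold. Pdk1 was at 65.4, 73.7 and 61.5 CPM in control 9w and 275, 319.8 and 315 CPM in EMPA + PFD, and Dlat at 109, 109 and 146 CPM in control 9w. Ogdh (log2 fold change 2.71, SE 0.36, adjusted p = 4.92e-04) and Cs (log2 fold change 2.61, SE 0.43, adjusted p = 9.70e-04) rose most, followed by Pdk1 (log2 fold change 2.18, SE 0.47, adjusted p = 0.00364) and Dlat (log2 fold change 2.16, SE 0.42, adjusted p = 0.00224). The groups did not overlap for these 4 genes, for Ogdh and Cs by the values given above. By branch 8 of 11, 13 of 16 and 11 of 14 members rose. The 9 that did not pass were Mpc1 (0.17), Mpc2 (0.67), Pc (-0.34), Idh3b (1.22), Suclg1 (1.12), Fh (0.98), Bckdha (0.81), Bckdhb (1.18) and Dbt (0.77). Leaving out any 1 library gave 23 to 38 members, all higher except Pc, which was lower without HFpEF replicate 3 (-0.34, adjusted p = 0.0463). Here 4 of 12 cardiomyocyte markers rose (median 1.21), 5 of 6 endothelial markers fell (1305 to 1596 CPM in EMPA + PFD against 2346 to 3073), 3 of 4 atrial markers fell and 2 of 3 tested erythroid markers fell (137 to 454 against 1111 to 1728 CPM).

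Neither drug alone gave a member past the threshold against untreated. For EMPA 0 passed in edgeR (0.0404% of all genes did), with 2 at an unadjusted p under 0.05 (1069 of 12388 genes), and the median was -0.20. DESeq2 called 1 (0.767% of all genes) and voom 0 (0.396%). For PFD 0 passed (0.00807% of all genes), with 0 at an unadjusted p under 0.05 (646 of 12388 genes). DESeq2 and voom called 0 each, and the median was 0.51. Cs was at 259.8 and 247 CPM in the 2 EMPA libraries and 585 and 632 CPM in the 2 PFD libraries, and Ogdh at 154 and 118 CPM and 294 and 296 CPM. Every value lay within the untreated range except the second PFD library for Cs, which was above it. With 2 libraries a group and a wide untreated spread, the standard errors were large, at 0.46 for EMPA and 0.45 for PFD for Cs. Every EMPA + PFD library was above both EMPA libraries for 40 of 41 members, and for 24.2% of all genes. RT1-CE16 had 0 counts in both EMPA libraries, 308 to 720 in EMPA + PFD and 583 to 684 in untreated. EMPA thus differed from EMPA + PFD in RT1-CE16, and from untreated in RT1-CE16 and Eif2s3y. In both comparisons the drugs and what these genes stand for cannot be told apart.

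The call that DESeq2 made for EMPA was Pc, at 16.6 and 23.1 CPM in EMPA, below all 3 untreated libraries (edgeR log2 fold change -0.90, SE 0.21, adjusted p = 0.16). Without HFpEF replicate 3 edgeR also called it (log2 fold change -0.90, adjusted p = 0.0406). The interaction of EMPA and PFD asks whether the effect of both exceeds the sum of the effects of each. It passed for 0 members (0.00807% of all genes), with 6 at an unadjusted p under 0.05 (1131 of 12388 genes). The interaction passed for 1 in DESeq2 (Pc, 0.436% of all genes) and 3 in voom (Pdp1, Pc and Ogdh, 0.88%), and 1 without HFpEF replicate 3 (Pc). Its largest values were 1.75 (SE 0.55, adjusted p = 0.4) for Ogdh, 1.67 (SE 0.59) for Pdp2 and 1.51 (SE 0.29, adjusted p = 0.129) for Pc. RT1-CE16 had 0 counts in both EMPA libraries but 463 and 545 in PFD, 308 to 720 in EMPA + PFD and 583 to 684 in untreated. The interaction and what RT1-CE16 stands for thus cannot be told apart.

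Because members and cardiomyocyte markers moved together, the branch level was also set against the mean log2 CPM of the 12 markers in the same library. For the TCA cycle the log2 difference was -3.0 to -2.83 in control 5w and -3.12 to -2.52 in HFpEF. At week 9 control 9w stood at -3.50 to -3.29, untreated at -3.12 to -3.02, EMPA at -3.14 to -3.08, PFD at -3.07 to -3.05 and EMPA + PFD at -2.91 to -2.78. HFpEF and control 5w overlapped on this measure. Control 9w was the lowest group with no overlap with any other, and untreated replicate 2 lay with the other untreated libraries for the TCA cycle. It stood above them for pyruvate entry (-4.43 against -4.89 and -4.93) and for branched-chain breakdown (-4.79 against -5.21 and -5.24). For pyruvate entry the difference was -4.69 to -4.39 in control 5w, -4.72 to -4.09 in HFpEF and -5.08 to -4.80 in control 9w. EMPA + PFD, apart from untreated for the TCA cycle, overlapped it for pyruvate entry (-4.89 to -4.65 against -4.93 to -4.43). The same held for branched-chain breakdown (-5.18 to -5.05 against -5.24 to -4.79). For branched-chain breakdown control 5w, HFpEF and control 9w overlapped, at -5.28 to -4.79, -5.13 to -4.32 and -5.42 to -5.07.

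**Figure D4:**
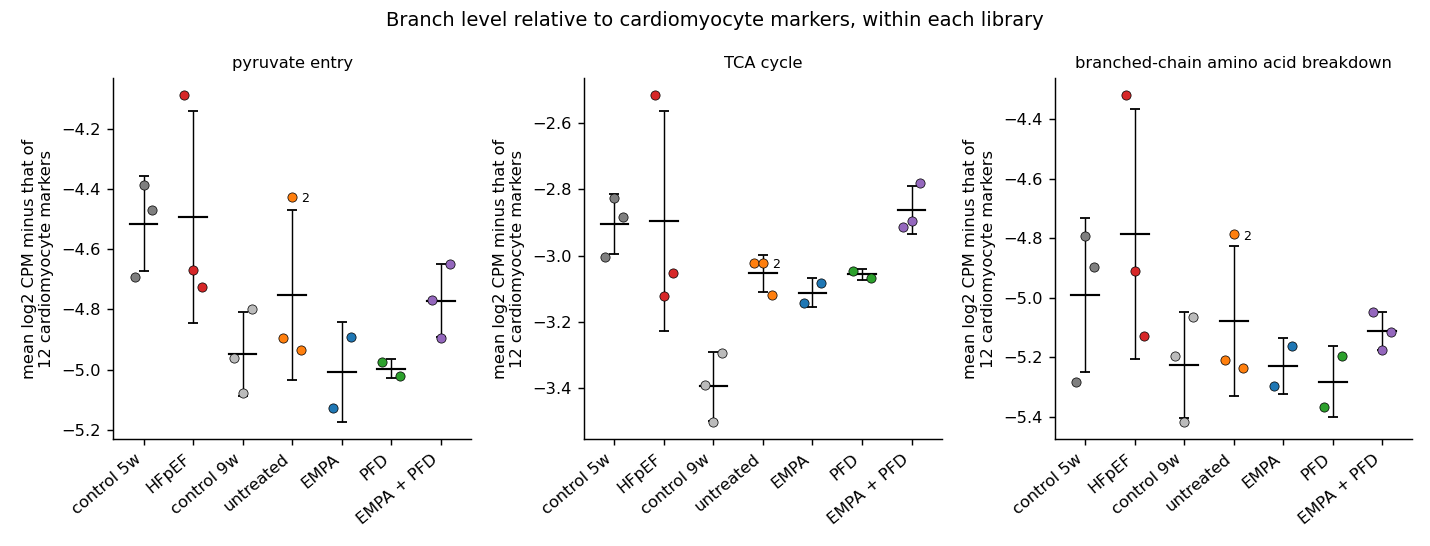
Mean log2 CPM of each branch minus that of 12 cardiomyocyte markers in the same library (points), with group means (lines) and SD (error bars). The SD within untreated is smaller than for the levels themselves in each branch (0.06 against 1.10 for the TCA cycle), and for the TCA cycle control 9w is lowest, at -3.50 to -3.29.

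With the marker mean as a covariate in the edgeR fit, an alternative added after the data were seen, 7 members were lower in HFpEF than in control 5w and 2 were higher, where 5.72% of all genes were lower and 6.26% higher. Lower were Ogdh (-1.21, SE 0.21, adjusted p = 0.00399), Cs (-1.08, SE 0.26, adjusted p = 0.0175), Aldh6a1 (-0.95), Pdp1 (-0.73), Pdk2 (-0.70), Mccc2 (-0.56) and Pdhx (-0.55). Higher were Suclg1 (0.77, adjusted p = 0.00312) and Auh (0.44). The members' median log2 fold change in that fit was -0.18, against -1.11 without the covariate. For EMPA + PFD against untreated 3 remained higher (1.52% of all genes were), Ogdh (1.17, SE 0.19, adjusted p = 0.0154), Cs (0.99) and Pdp1 (0.75). Against control 9w 22 were higher (9.95% of all genes), led by Ogdh (1.99) and Cs (1.71), and 1, Mpc1, was lower (-0.70, adjusted p = 0.00614). For control 9w against control 5w 23 were lower (22.5% of all genes) and 1, Suclg1, was higher (0.45). For untreated against control 9w 8 were higher (2.49% of all genes), namely Pdk1, Cs, Ogdh, Dlst, Suclg2, Got2, Bckdk and Auh. By construction the covariate takes out any change that members and cardiomyocyte markers share.

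Ratios within a library compare enzymes that work as a pair and leave out library size, and are described without a test, since the smallest p of an exact permutation of 3 against 3 libraries is 0.1. The log2 ratio of Pdk2 to Pdha1, inhibitor to target, was -1.18, -1.85 and -1.79 in control 5w, -2.90, -1.40 and -1.89 in HFpEF, -1.45, -1.74 and -1.63 in untreated and -1.10, -1.85 and -1.56 in EMPA + PFD. These groups overlapped. For Pdk1 to Pdk2 it was -1.19, -1.19 and -1.22 in control 5w and -0.07, -0.93 and -0.54 in HFpEF, with every HFpEF library higher. Every library of EMPA (-0.79 to -0.70), PFD (-0.91 to -0.75) and EMPA + PFD (-0.76 to -0.43) was also above control 5w. Control 9w (-1.25 to -0.83) and untreated (-1.37 to -0.60) lay on both sides of it. The ratio of Bckdk to the mean of the dehydrogenase subunits Bckdha, Bckdhb and Dbt was -0.48, -0.28 and -0.50 in control 5w and 0.36, 0.04 and -0.38 in HFpEF, and -0.21, 0.42 and -0.26 in untreated. HFpEF replicate 1 and untreated replicate 2 were the highest.

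Of the paralog pairs, Mdh1 to Mdh2, cytosolic to mitochondrial, lay between 0.23 and 0.50 in 18 libraries and at 0.88 in control 5w replicate 1. Suclg2 to Sucla2, the GDP-forming to the ADP-forming subunit, was -1.49, -0.80 and -0.80 in control 5w and -1.28, -1.30 and -1.48 in EMPA + PFD, with overlap. Got1 to Got2, cytosolic to mitochondrial, was 0.10, 0.34 and -0.18 in control 9w and -0.69, -0.63 and -0.68 in untreated, and no untreated library reached the control 9w range. Nor did any library of control 5w (-0.71 to -0.29), HFpEF (-0.79 to -0.48), EMPA (both -0.33) or EMPA + PFD (-0.56 to -0.36). The PFD libraries were at -0.07 and -0.66. PFD replicate 1 was thus the only library of another group within the control 9w range. Pc to Pdha1, a ratio added after the values were seen, was -4.67, -4.32 and -4.42 in control 5w, -3.88, -3.96 and -3.76 in HFpEF and -2.89, -2.63 and -3.21 in control 9w, 3 ranges that did not overlap. It was -4.73, -2.96 and -4.29 in untreated and -4.68, -5.06 and -5.07 in EMPA + PFD.

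**Figure D5:**
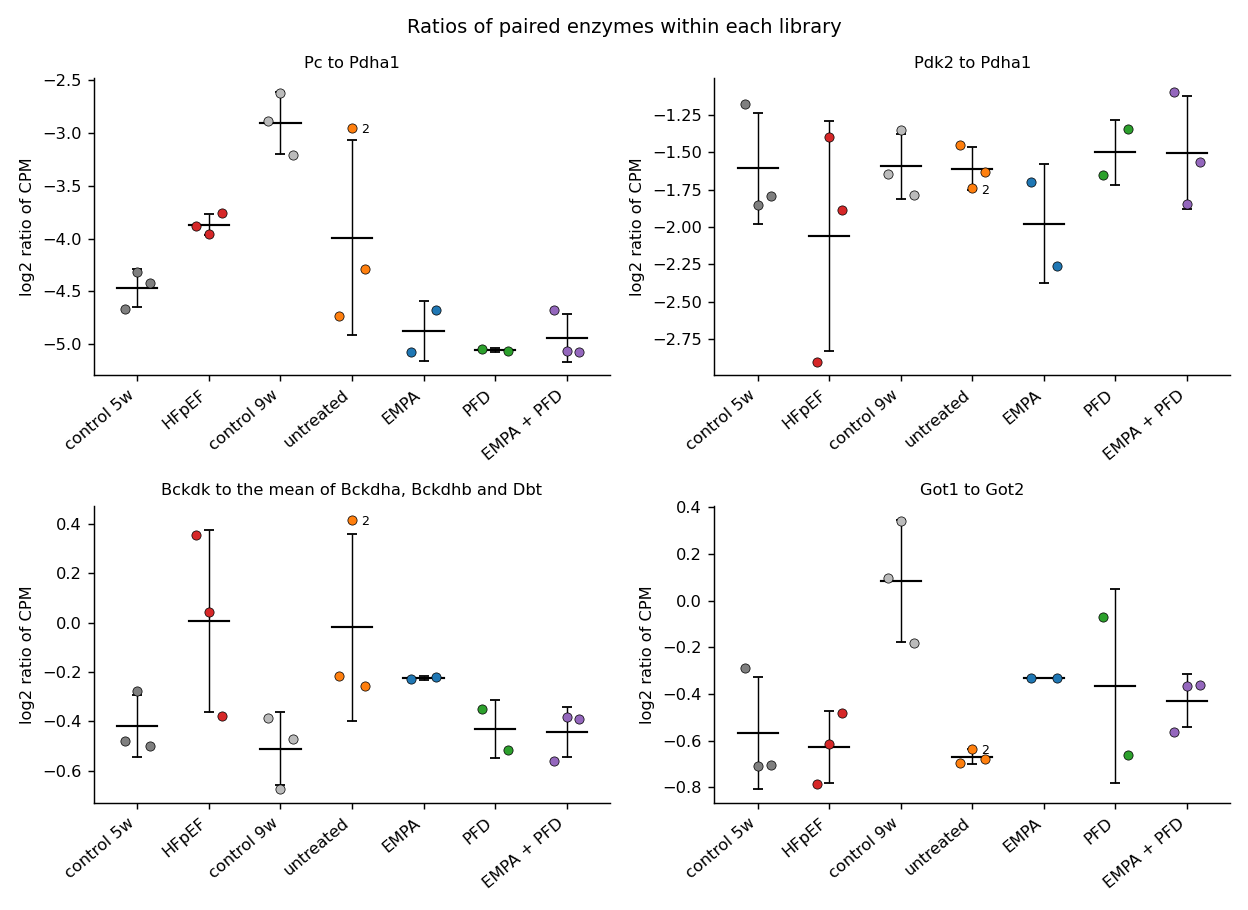
Log2 ratio of CPM within each library (points) for Pc to Pdha1, Pdk2 to Pdha1, Bckdk to its target subunits and Got1 to Got2, with group means (lines) and SD (error bars). Pc to Pdha1 is highest in control 9w, and untreated replicate 2, marked 2, lies at -2.96 in the same range.

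Other genes of the same pathways, 43 listed of which 38 were tested, were read from a list and not chosen by their change. In HFpEF against control 5w 10 of 38 fell and 0 rose (10.2% of all genes fell). In control 9w against control 5w 13 fell and 4 rose, where 17.2% of all genes fell and 17.3% rose. In EMPA + PFD against untreated 8 rose and 1 fell (6.6% and 5.52% of all genes), and against control 9w 23 rose and 0 fell (17.1% of all genes rose). Sdha, the catalytic subunit of succinate dehydrogenase (log2 fold change -1.57, SE 0.36, adjusted p = 0.0104), and Ppm1k, the phosphatase that activates the branched-chain dehydrogenase (log2 fold change -1.73, SE 0.31, adjusted p = 0.00307), fell in HFpEF. Ppm1k rose in EMPA + PFD against untreated (log2 fold change 1.35, SE 0.31, adjusted p = 0.0182).

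Pdk4, the pyruvate dehydrogenase kinase that is induced by fasting and fatty acids, is a paralog of the members Pdk1 and Pdk2. It was higher in control 9w than in control 5w (log2 fold change 2.02, SE 0.60, adjusted p = 0.0184), where Pdk2 fell, and higher in EMPA + PFD than in untreated (log2 fold change 2.14, SE 0.60, adjusted p = 0.0349) and than in control 9w (log2 fold change 3.48, SE 0.63, adjusted p = 0.0016). Klf15, a transcription factor known to regulate branched-chain breakdown in the heart, was also higher in control 9w than in control 5w (log2 fold change 0.77, SE 0.28, adjusted p = 0.0446), while Bcat1, the cytosolic transaminase, fell there (log2 fold change -2.19, SE 0.75, adjusted p = 0.0348).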

How the data were processed

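Hearts of 19 rats, for which the study's methods name the left ventricle, were sequenced. The counts, whole reads per gene and library, are as deposited by the authors, who per the study's methods trimmed reads with Trim Galore, checked them with FastQC, aligned them to rn6 with HISAT2 and counted genes with HTSeq, each with no version given. The authors had left out 1 EMPA and 1 PFD library as corrupted files. No library was left out here.

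Counts were normalised with TMM, filtered with filterByExpr and fitted in 1 quasi-likelihood model over the 7 groups in edgeR 4.0.16 (R 4.3.3). P-values were adjusted by Benjamini-Hochberg over 12388 genes and a member passed at an adjusted p under 0.05. Log2 CPM for means and ratios had a prior count of 2. Standard errors were taken from the F statistic. Each library is 1 heart, so p-values measure the spread between hearts at 7430539 to 13017754 counts per library. Of 171 pairs of libraries 0 held identical counts. The script was tested on simulated data.

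The members, gene lists and tests were chosen with earlier results of these data known. Named genes were 15 set by role across the branches, the largest fall and rise of each branch in HFpEF against control 5w and in EMPA + PFD against untreated, and paralog pairs. Lists of 8 cell types were read beside the members. Replicate numbers did not pair the libraries: 4 of 22 same-numbered pairs had a correlation of deviations above 0.1, over a range of -0.53 to 0.35. Alternatives were other scalings, filters, DESeq2 1.42.0, voom (limma 3.58.1), covariates, a replicate block, and each library left out in turn. The week difference, the marker covariate and the ratio of Pc to Pdha1 were added after the data were seen.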

Additional observations from a re-analysis of the deposited data

Results flagged for a closer look

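The disease effect differed between the time points in a test of the difference itself. It was higher at week 9 than at week 5 for 23 of the 41 members (9.76% of all genes), and 11 to 37 passed when 1 library was left out. Among the named genes, it differed by 3.15 on the log2 scale for Cs (SE 0.58, edgeR adjusted p = 0.0036), by 2.47 for Dlat (SE 0.58, adjusted p = 0.0107) and by 2.36 for Aldh6a1 (SE 0.57, adjusted p = 0.0119). At week 5 all 3 HFpEF libraries were below all controls for these genes, and at week 9 untreated replicates 1 and 3 were above and replicate 2 below the controls.

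The 3 values rest on control groups that differed from each other and on disease groups that differed in Eif2s3y. All untreated but only 2 of 3 HFpEF libraries lack that gene. The week difference and what Eif2s3y stands for cannot be told apart. Dlat was at 493, 269.6 and 299.9 CPM in control 5w and 109, 109 and 146 CPM in control 9w, against 90.0, 84.8 and 171 CPM in HFpEF and 329.7, 76.2 and 250.04 CPM in untreated. The cardiomyocyte markers gave 4 of 12 higher in the same test, with a median of 1.57. Their part was not tested beyond the covariate, under which 15 members were higher and 1, Suclg1, lower. The share of all genes in that fit is not given here.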

How the results depend on the processing

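Counts of members that passed are given against those of edgeR on all 19 libraries. Percentages are the share of all genes that passed in the same fit, in either direction. For control 9w against control 5w (16, 34.5%) voom gave 26, where it called 70.7% of all genes. For HFpEF against control 5w (22, 20%) the count was 7 with the compared libraries only (6.01%). It was 6 with Eif2s3y as a covariate (10.8%) and 9 with the cardiomyocyte covariate (12%). For untreated against control 9w (0, 1.78%) voom gave 37 (40.4%) and the cardiomyocyte covariate 8 (6.56%). For untreated against HFpEF (0, 0.226%) DESeq2 gave 4 (7.79%) and voom 35 (27.8%). For EMPA + PFD against untreated (10, 12.1%) the count was 5 over genes with at least 1 count (7.85%), 19 in DESeq2 (20.4%) and 24 in voom (30%). It was 0 with the compared libraries only (0.0435%), 0 with Eif2s3y (3.99%) and 3 with the cardiomyocyte covariate (2.71%). At a fold of at least 2 it was 6, where 473 of 12388 genes passed. For EMPA against untreated (0) DESeq2 gave 1 (0.767%), and for the interaction (0) DESeq2 gave 1 (0.436%) and voom 3 (0.88%). For the difference of the disease effect (23, where 2473 of 12388 genes passed) voom gave 36, the compared libraries only 11 and Eif2s3y 15. The shares of all genes in these alternative fits are not given here. The fit of compared libraries only rests on fewer libraries by construction. The Eif2s3y coefficient rests on the HFpEF libraries alone, where 1 had the gene and 2 did not. The causes of the other shifts were not tested.

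Leaving out each library in turn gave 6 to 21 for control 9w against control 5w, 9 to 33 for HFpEF against control 5w, 0 to 17 for untreated against control 9w, 0 to 37 for untreated against HFpEF, 0 to 23 for EMPA + PFD against untreated, 0 to 1 for EMPA, 0 to 0 for PFD, 23 to 38 for EMPA + PFD against control 9w, 0 to 1 for the interaction and 11 to 37 for the difference of the disease effect. Over all genes, 2586 to 4738 passed in either direction for control 9w and 1490 to 3125 for HFpEF against control 5w. For untreated 8 to 1015 passed against control 9w and 4 to 1787 against HFpEF. For EMPA + PFD 110 to 2263 passed against untreated and 2476 to 4570 against control 9w. For the difference of the disease effect 1321 to 3690 passed. Without 1 EMPA or PFD library the lone library was assumed to vary like the other groups. With the replicate block the counts were 14, 18, 0, 0, 9, 0, 0, 31, 0 and 18 in the order of the 10 comparisons (control 9w and HFpEF against control 5w, untreated against control 9w and HFpEF, EMPA + PFD, EMPA and PFD against untreated, EMPA + PFD against control 9w, interaction, difference), and none moved by over 1.5 times. With the block 31.2%, 17%, 0.799%, 0.0727%, 8.84%, 0.00807%, 0%, 31% and 0.00807% of all genes passed, in the same order up to the interaction. Of 2884 recomputed values of members that had passed, 2404 passed again, 480 no longer did and 0 changed direction. Each member had at least 36 counts in every library, and the biological coefficient of variation over all genes was 0.257, estimated from 2 or 3 hearts a group.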

Other observations

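Other genes that feed these pathways were not described above. Nnt, which couples NADH to NADPH in the inner membrane, was at 1694, 1008 and 1158 CPM in control 5w and 247, 312 and 521 CPM in HFpEF, without overlap (log2 fold change -1.84, SE 0.45, adjusted p = 0.0136 in edgeR). Slc16a1, a monocarboxylate carrier for lactate and pyruvate, was at 579, 505 and 523 CPM against 148, 69.1 and 245 CPM (log2 fold change -1.80, SE 0.45, adjusted p = 0.0148), and Pdpr, the regulatory subunit of the pyruvate dehydrogenase phosphatase, was at 51.9, 33.7 and 34.1 CPM against 8.90, 10.6 and 12.6 CPM (log2 fold change -1.90, SE 0.25, adjusted p = 5.75e-04). Both were higher in EMPA + PFD than in untreated (Slc16a1 1.69, Pdpr 1.42). Me2, the mitochondrial malic enzyme, was the 1 listed gene that fell in EMPA + PFD against untreated, at 15.7, 10.9 and 11.1 CPM against 21.2, 29.4 and 18.7 CPM (log2 fold change -0.88, SE 0.24, adjusted p = 0.0304).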
